A study of Bos taurus with 8 samples.

Results

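The genes described here are 10 genes of the endoplasmic reticulum (ER), the compartment in which hepatocytes fold the plasma proteins they secrete: HSPA5, HSP90B1, PDIA3, PDIA4, PDIA6, CALR, CANX, HERPUD1, XBP1 and SDF2L1. They were chosen by name from the chaperones and the unfolded-protein response, and their probes were found by the RefSeq accession that the array design gives each probe. All 10 were matched, by 32 probes, and every one of these probes was well above background on all 8 arrays, so all 10 belong to the 10860 genes with a detected probe. Liver RNA came from Japanese Black fetal calves at 8.5 months post-conception and was hybridised in 1 colour to Agilent bovine arrays, with 4 fetuses of dams fed 60% of their nutritional requirement during gestation (low nutrition, LN; L5, L6, L8 and L9) and 4 of dams fed 120% (high nutrition, HN; L1, L2, L3 and L10). Fetuses were selected by weight, light ones from LN and heavy ones from HN, and no group was fed exactly the requirement. Sample labels assign 1 fetus to each array, whereas the description of the series mentions pooling of RNA by group, and each array is taken here as 1 fetus. The diets were hybridised on separate slides that were scanned separately, so slide, scan and diet cannot be told apart.

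Nascent secretory proteins enter the ER, where chaperones hold them, lectins keep glycoproteins until they are folded, and protein disulphide isomerases form and rearrange their disulphide bonds. When unfolded protein builds up, the sensors IRE1 (ERN1), PERK (EIF2AK3) and ATF6 signal to the nucleus, and the unfolded-protein response raises chaperone, disulphide isomerase and degradation genes. Liver depends on this system because it secretes most plasma proteins. The comparison asked whether these genes differed in fetal liver between low and high maternal nutrition.

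Values are log2 of the background-subtracted spot intensity after quantile normalization between arrays. Where a gene had several probes, the probe with the highest mean signal represents it. Between 32635 and 34369 of 43803 spots per array were well above background and 0 spots were saturated. Differences are LN minus HN on the log2 scale and were tested with limma over 33439 detected probes, 2-sided with Benjamini-Hochberg adjustment. The exact permutation test is 2-sided over all divisions of the fetuses into 4 and 4, and the smallest p it can give is 0.0286. In bulk RNA, fewer cells of a type and less RNA per cell cannot be told apart.

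None of the 10 genes differed between LN and HN beyond the threshold. Their mean signal was higher in LN for 7 (HSPA5, XBP1, CANX, PDIA3, HSP90B1, PDIA6 and PDIA4) and lower for 3 (CALR, HERPUD1 and SDF2L1), where 51.6% of all genes were higher in LN. The differences ran from -0.23 for SDF2L1 to 0.18 for HSPA5, that is, from 1.17-fold lower to 1.13-fold higher, with a median of 0.11, beside a median of 0.0075 over all genes. By limma, 0 of the 10 passed an adjusted p of 0.05, and 0 reached 0.05 before adjustment, which 3.3% of genes did with a higher and 2.75% with a lower signal in LN. Over all detected probes, limma placed 0 past the adjusted threshold and 2113 at the unadjusted one. Groups that did not overlap, with LN above HN, were found for 1 of the 10 (PDIA3) and for 2.59% of all genes.

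**Figure D1:**
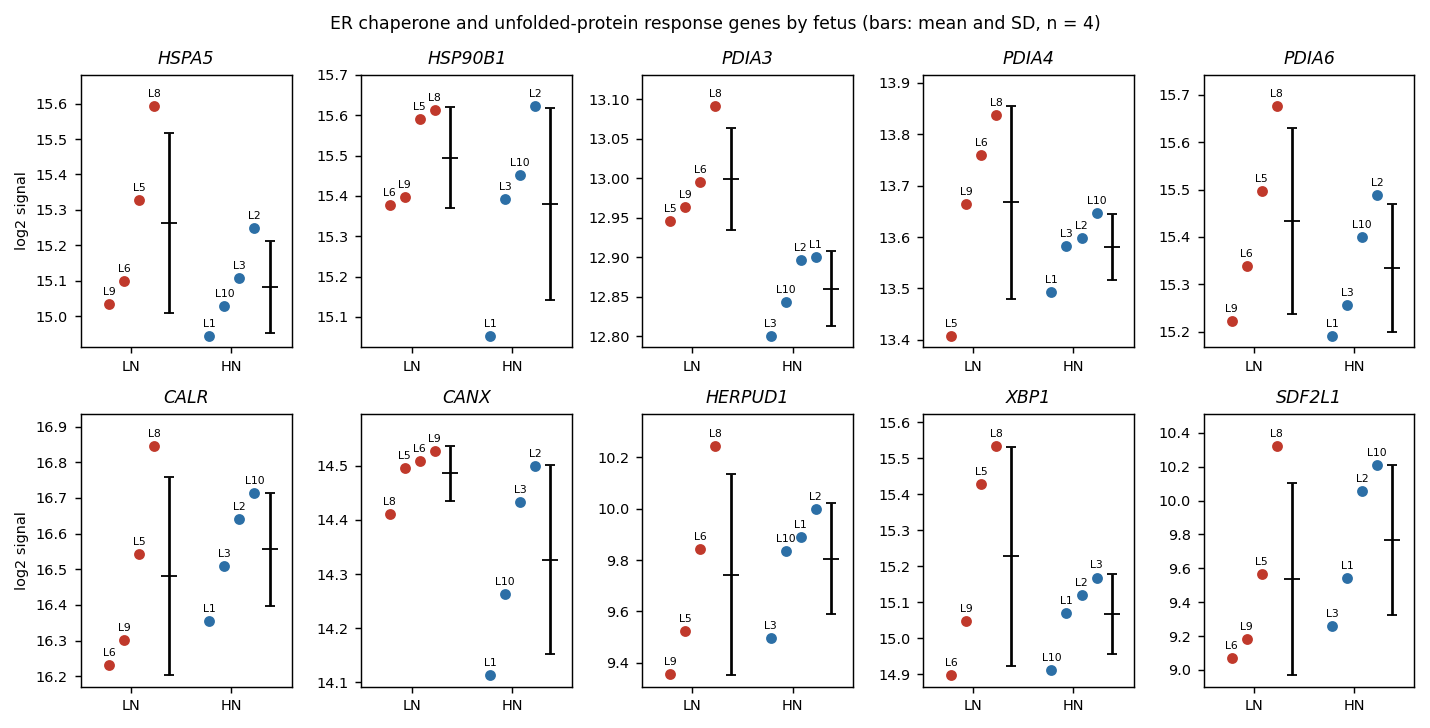
Log2 signal of the representative probe of each gene (vertical axes, which differ between panels and do not start at 0) in the 4 LN and 4 HN fetuses, with points in order of signal within a group and bars for the mean and SD. The groups overlapped in every panel except PDIA3, and LN fetus L8 was the highest of the 8 in 8 of the 10 panels.

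The ATP-dependent chaperones of the ER lumen are HSPA5 (BiP), an HSP70 protein that binds unfolded chains and holds the stress sensors inactive, and HSP90B1 (GRP94), an HSP90 protein that acts later on selected clients. HSPA5 was 15.33, 15.10, 15.59 and 15.04 in LN fetuses L5, L6, L8 and L9, and 14.94, 15.25, 15.11 and 15.03 in HN fetuses L1, L2, L3 and L10. L8 and L5 were the highest of the 8 and L1 the lowest, and the other LN fetuses lay among the HN fetuses. The mean was 15.26 ± 0.25 in LN and 15.08 ± 0.13 in HN (SD, n = 4 each), a difference of 0.18 (standard error, SE, 0.15, p = 0.257 by exact permutation and adjusted p = 0.859 by limma). The 95% interval of this difference ran from -0.16 to 0.52, so these arrays leave room for a rise of up to 1.44-fold or a small fall. The difference was 0.071 without L8, 0.26 without L9 and 0.11 as the mean over the HSPA5 probes.

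HSP90B1 was 15.59, 15.38, 15.61 and 15.40 in the LN fetuses and 15.05, 15.62, 15.39 and 15.45 in the HN fetuses, in the same order. HN fetus L2 was as high as the highest LN fetuses, and L1 was far below the rest. The difference was 0.12 (SE 0.15, p = 0.600 by exact permutation and adjusted p = 0.915 by limma), and it was 0.0064 without HN fetus L1, 0.0755 without L8, 0.20 without HN fetus L2 and 0.070 with normexp background correction.

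The disulphide isomerases were alike in direction and differed in spread. PDIA3 (ERp57), which works on glycoproteins handed over by calnexin and calreticulin, was 12.95, 12.99, 13.09 and 12.96 in LN fetuses and 12.90, 12.90, 12.80 and 12.84 in HN fetuses. Every LN fetus was above every HN fetus on the 1 probe of PDIA3. The step between the groups was small, at 0.14 (SE 0.10, p = 0.0286 by exact permutation and adjusted p = 0.838 by limma). PDIA3 had the narrowest range of the 10 genes over the 8 fetuses, at 0.29, with an SD of 0.065 in LN and 0.048 in HN. At each of the 4 positions on a slide, which hold 1 LN and 1 HN array, LN was higher, by 0.045 to 0.29, as it was at all positions for 8.23% of all genes.

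PDIA4 (ERp72), an isomerase with an additional thioredoxin-like active site, was 13.41, 13.76, 13.84 and 13.66 in LN fetuses and 13.49, 13.60, 13.58 and 13.65 in HN fetuses. LN fetus L5 was the lowest of all and the other LN fetuses were above every HN fetus. Its difference was 0.087 (SE 0.12, p = 0.429 by exact permutation and adjusted p = 0.927 by limma), and 0.17 without L5, when the groups did not overlap. It was 0.030 without L8, 0.056 without L6 and 0.021 as the mean over its probes.

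PDIA6 (P5), a partner of BiP that also acts on the IRE1 sensor, was 15.50, 15.34, 15.68 and 15.22 in LN fetuses and 15.19, 15.49, 15.26 and 15.40 in HN fetuses. L8 was the highest and L1 the lowest, with the rest mixed. The difference was 0.100 (SE 0.14, p = 0.457 by exact permutation and adjusted p = 0.922 by limma), and it was 0.019 without L8, 0.17 without L9, 0.052 without HN fetus L1, 0.15 without HN fetus L2 and 0.043 as the mean over its probes.

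The lectin chaperones of the glycoprotein cycle pointed in opposite directions, each within its spread. Calreticulin (CALR), the soluble lectin and a calcium store of the lumen, was 16.54, 16.23, 16.85 and 16.30 in LN fetuses and 16.36, 16.64, 16.51 and 16.72 in HN fetuses. The LN fetuses held both the highest and the lowest signal. The difference was -0.075 (SE 0.16, p = 0.657 by exact permutation and adjusted p = 0.950 by limma), with a 95% interval from -0.44 to 0.29, and it ran from -0.20 without L8 to 0.0082 without L6.

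Calnexin (CANX), the membrane-bound lectin, was 14.50, 14.51, 14.41 and 14.53 in LN fetuses and 14.11, 14.50, 14.43 and 14.26 in HN fetuses. On this probe the LN fetuses lay close together, with an SD of 0.052 against 0.17 in HN, and HN fetuses L1 and L10 were the lowest. The next brightest CANX probe had an SD of 0.11 in LN and 0.16 in HN. All dimmer CANX probes had the larger SD in LN, with 0.36 against 0.16 on the brightest of them. The difference was 0.16 (SE 0.12, p = 0.171 by exact permutation and adjusted p = 0.847 by limma), and it was 0.088 without HN fetus L1 and 0.086 as the mean over its probes.

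XBP1 encodes the transcription factor that IRE1 activates by splicing its mRNA. The probes are assigned to an XBP1 accession without a stated position, so spliced and unspliced mRNA were not told apart. XBP1 was 15.43, 14.90, 15.53 and 15.05 in LN fetuses and 15.07, 15.12, 15.17 and 14.91 in HN fetuses. L8 and L5 stood above all HN fetuses, while LN fetus L6 was the lowest of the 8. The difference was 0.16 (SE 0.16, p = 0.400 by exact permutation and adjusted p = 0.890 by limma), and it was 0.056 without L8 and 0.27 without L6.

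HERPUD1, a stress-induced membrane protein of the complex that sends misfolded proteins for degradation, was 9.52, 9.84, 10.25 and 9.36 in LN fetuses and 9.89, 9.999, 9.50 and 9.84 in HN fetuses. The LN fetuses again held the highest and the lowest signal. The difference was -0.063 (SE 0.21, p = 0.800 by exact permutation and adjusted p = 0.968 by limma), and its direction depended on single fetuses, between -0.23 without L8 and 0.066 without L9. SDF2L1, a BiP-associated factor that is a target of the stress response, was 9.57, 9.07, 10.32 and 9.18 in LN fetuses and 9.54, 10.05, 9.26 and 10.21 in HN fetuses. It varied most of the 10, over a range of 1.26 among the 8 fetuses. The difference was -0.23 (SE 0.31, p = 0.571 by exact permutation and adjusted p = 0.921 by limma), with a 95% interval from -0.94 to 0.48, and it was -0.49 without L8 and -0.074 without L6.

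Within each gene the 8 fetuses spanned 0.29 (PDIA3) to 1.26 (SDF2L1). LN fetus L8 had the highest signal of the 8 for 8 of the 10 genes (all but HSP90B1 and CANX), where 11.3% of all genes were highest in L8, and its mean deviation from each gene's mean was 0.31. The next highest fetus was HN L2, at 0.11, and the lowest were HN L1, at -0.15, and LN L9, at -0.13. HN fetus L1 was the lowest for 4 genes and LN fetus L6 for 3, and no share over all genes was taken for these counts. The SD was larger in LN than in HN for 8 of the 10 genes, and for 53.3% of all genes. Without L8 the median difference of the 10 genes was 0.043 in place of 0.11, and 7 genes were higher in LN. These patterns were seen in the data and are given as a description, and the part of any feature of L8 in them was not tested.

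**Figure D2:**
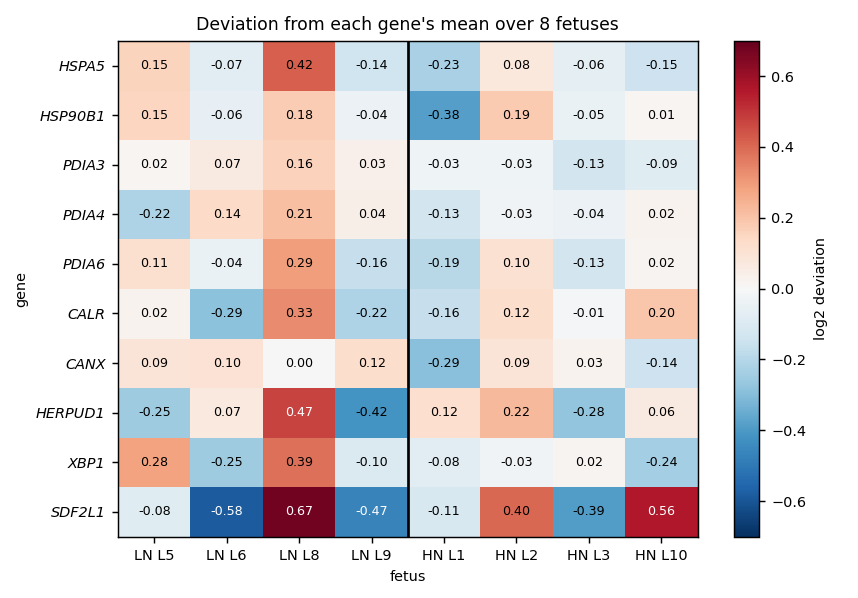
Deviation of each gene (rows) in each fetus (columns, LN left of the line, HN right) from the gene's mean over 8 fetuses, in log2 units and colour from blue (lower) to red (higher). The L8 column is above 0 for all 10 genes and the L1 column is below 0 for 9, and SDF2L1 spans the widest range, from -0.58 in L6 to 0.67 in L8.

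HSPA5 was used as a reference for how the genes vary together, over 9 pairs with Benjamini-Hochberg adjustment. PDIA6 followed it most closely, with Pearson's r = 0.92 (exact permutation p = 0.00136, adjusted p = 0.0123) and Spearman's rho = 0.83 (exact permutation p = 0.0154, adjusted p = 0.138) over 8 fetuses. Without L5 and L8, the 2 fetuses farthest from the median HSPA5 signal, r was 0.76, and it was 0.92 for deviations from the group means. XBP1 had r = 0.86 (exact permutation p = 0.00665, adjusted p = 0.0299) and rho = 0.76 (exact permutation p = 0.0368, adjusted p = 0.165). For XBP1, r was 0.30 without L5 and L8 and 0.83 for deviations from the group means. L5 and L8 have the highest HSPA5 signals, so leaving them out also narrows its range. The fall in r therefore cannot show that the relation rests on them. With 75th percentile scaling of the arrays XBP1 had r = 0.82 and missed the threshold (exact permutation adjusted p = 0.0804).

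HSP90B1 had r = 0.77 (exact permutation p = 0.0351, adjusted p = 0.105) and rho = 0.71 (exact permutation p = 0.0576, adjusted p = 0.173). Its r was 0.85 without L5 and L8 and 0.74 for deviations from the group means. The other 6 pairs had r between 0.33 for PDIA4 and 0.68 for CALR, with exact permutation adjusted p from 0.140 to 0.418, and rho between 0.14 and 0.48, with adjusted p from 0.547 to 0.752. Without L5 and L8, r of these 6 lay between -0.043 for PDIA3 and 0.70 for CANX, with 0.36 for CALR and 0.21 for SDF2L1. For deviations from the group means, r was above its value over the 8 fetuses for CALR (0.87), SDF2L1 (0.75) and HERPUD1 (0.61). It was below that value for PDIA3 (0.52), PDIA4 (0.21) and CANX (0.18). Each slide holds 4 fetuses of 1 group, too few for a correlation within a slide.

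**Figure D3:**
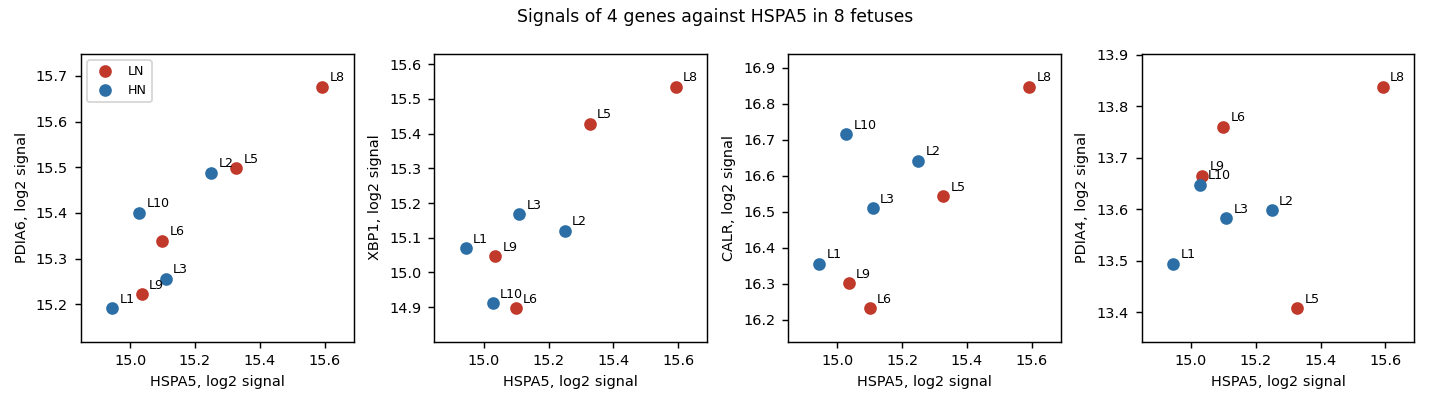
Log2 signal of PDIA6, XBP1, CALR and PDIA4 (vertical axes) against that of HSPA5 (horizontal axes) in 4 LN (red) and 4 HN (blue) fetuses. PDIA6 rises with HSPA5 over all fetuses, L5 and L8 are the highest for HSPA5 and for XBP1, and L5 is high for HSPA5 but lowest for PDIA4.

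Among the other 10859 genes with a detected probe, those with the highest Pearson's r to HSPA5 over the 8 fetuses and outside the 10 genes were HYOU1 (0.97), GRPEL2 (0.96), DNAJB11 (0.95), AREL1 (0.94) and PXMP4 (0.94). HYOU1 is a large HSP70-like chaperone that exchanges nucleotide on BiP, and DNAJB11 is a J-domain co-chaperone of BiP. GRPEL2 is a nucleotide exchange factor of mitochondrial HSP70, and PXMP4 is a peroxisomal membrane protein. The 20 most alike genes held 1 of the other members, PDIA6, and 3 of 147 measured genes of the ER lists below, HYOU1, DNAJB11 and MANF (the last named after its value was seen), where those lists make up 1.35% of the genes. These values are a description, since the genes were picked for their likeness.

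Several probes of a gene did not always give the same direction. Of 7 genes with more than 1 probe, CALR (6 probes, all lower in LN), HERPUD1 (3, all lower) and XBP1 (3, all higher) kept 1 direction, while HSPA5, PDIA4, PDIA6 and CANX were mixed. In all, 16 of the 32 probes were higher in LN. The 4 HSPA5 probes differed by 0.18, 0.20, 0.070 and -0.028, from the brightest to the dimmest, and the CANX probes ran from -0.14 to 0.39.

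Bright and dim probes placed LN fetus L5 differently. On the brightest HSPA5 probe L5 was 15.33, above every HN fetus, and on the dimmest it was 10.47, the lowest of the 8, where the others lay between 10.87 and 11.36. For PDIA6, L5 was 15.50 on the brightest probe, behind L8 alone, and the lowest of the 8 on the others, at 10.53 and 10.06. L5 was the lowest of the 8 on 7 of the 22 probes that do not represent their gene and on 1 of the 10 that do. Over the array, it was the lowest on 14.1% of detected probes that do not represent their gene and on 15.5% of representative probes. HN fetus L1 was the lowest on 6 of the 22, and L8 the highest on 8, and no share over all probes was taken for these counts. The cause was not tested, and the position of a probe in its transcript was not used here.

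**Figure D4:**
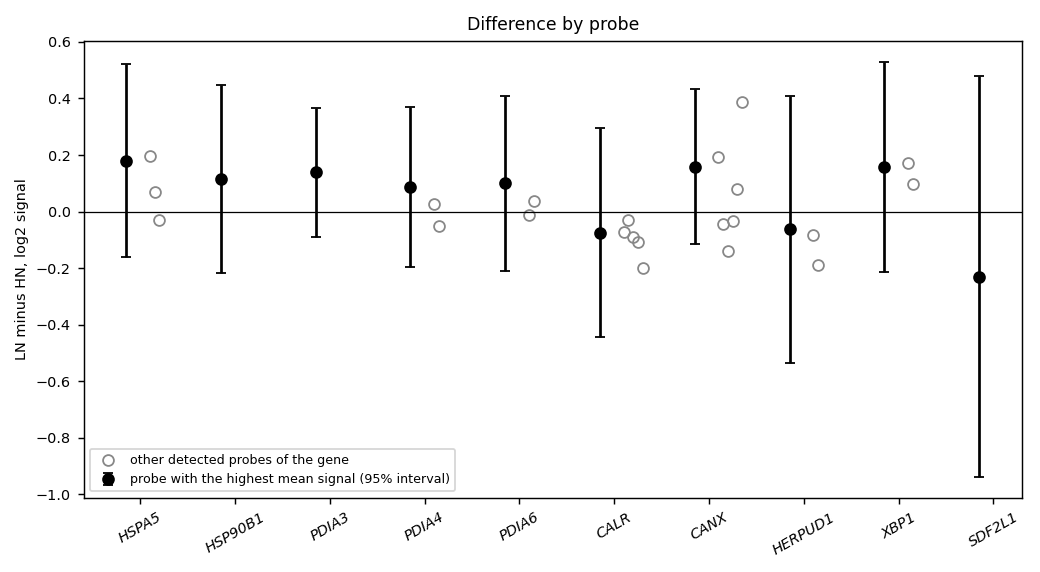
LN minus HN difference in log2 signal (vertical axis) for every probe of the 10 genes, with the representative probe in black with its 95% interval from limma and the other probes as open circles, from the brightest on the left to the dimmest. All 10 intervals include 0, and the open circles of HSPA5, PDIA4, PDIA6 and CANX fall on both sides of it.

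The wider ER system was taken from 7 lists of 171 genes, of which 147 were measured. In LN, 88 were higher and 59 lower, 6 were higher at p of at most 0.05 before adjustment by limma and 0 were lower, and 0 passed the adjusted threshold. Over all genes, 51.6% were higher in LN, and 3.3% were higher and 2.75% lower at that threshold. For translocation into the ER 18 of 22 were higher (median 0.087), none of them at the unadjusted threshold, and between 15 and 18 of 22 when single fetuses were left out. For ER-associated degradation 22 of 31 were higher (median 0.068), and 17 of 31 without LN fetus L9 (median 0.021). For N-glycosylation it was 11 of 18 (median 0.078), with a median of 0.043 without L8, 0.047 without HN fetus L1 and 0.050 without HN fetus L10. For other ER chaperones it was 12 of 20 (median 0.023), which single fetuses moved between 8 of 20 (median -0.020, without HN fetus L1) and 14 of 20 (median 0.12, without HN fetus L2). Disulphide formation was evenly divided, with 9 of 18 higher (14 without HN fetus L3 and 7 without HN fetus L1), as was ER to Golgi transport, with 12 of 24. Stress sensors and transcription control leaned the other way, with 4 of 14 higher and a median of -0.072.

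**Figure D5:**
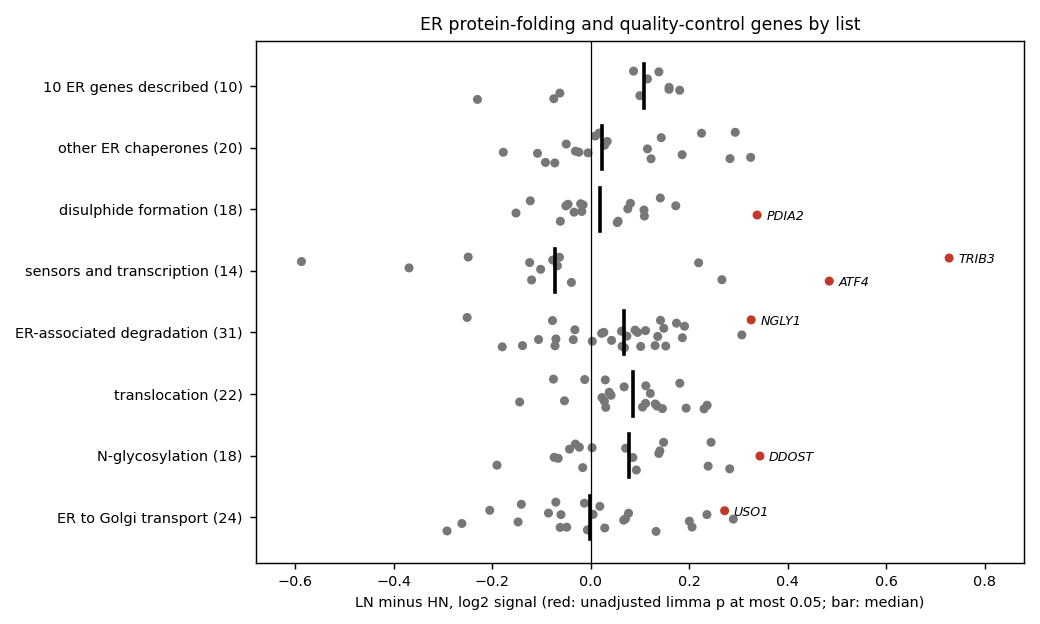
LN minus HN difference in log2 signal (horizontal axis) of the genes in each list, 1 point per gene, with red for p of at most 0.05 by limma before adjustment and a bar for the median. The 6 red genes are all higher in LN, with TRIB3 and ATF4 farthest to the right, and the 10 genes described lie between -0.23 and 0.18.

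Among the sensors and their outputs, ERN1 and ATF6 were matched by 0 probes and so not analysed here. EIF2AK3, the PERK kinase, was between 9.59 and 9.70 in LN and between 9.70 and 9.89 in HN, a difference of -0.12 (SE 0.10, p = 0.0571 by exact permutation and adjusted p = 0.858 by limma). Its groups overlapped only at L8 and L1, and all 3 of its probes were lower in LN. ATF4, the factor translated when PERK or the amino acid sensor GCN2 phosphorylates eIF2, was 15.91, 15.93, 16.06 and 15.62 in LN fetuses and 15.52, 15.28, 15.69 and 15.09 in HN fetuses. Only LN fetus L9 overlapped with HN, and the difference was 0.48, or 1.40-fold (SE 0.16, p = 0.0571 by exact permutation, and p = 0.0162 before and 0.760 after adjustment by limma). TRIB3, a pseudokinase induced by ATF4, was 10.60, 10.40, 10.86 and 9.75 in LN fetuses and 10.003, 9.22, 9.83 and 9.64 in HN fetuses. LN fetus L9 again lay among the HN fetuses, and the difference was 0.73, or 1.66-fold (SE 0.26, p = 0.0857 by exact permutation, and p = 0.0206 before and 0.760 after adjustment by limma). DDIT3 (CHOP), the apoptosis-linked factor downstream of ATF4, differed by 0.27 (SE 0.13, p = 0.0857 by exact permutation and adjusted p = 0.787 by limma). Whether ATF4 and TRIB3 differed more than the chaperones was not tested.

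The fixed partners of BiP and EDEM1 did not pass the threshold either. HYOU1 differed by 0.12 (SE 0.15), with values from 0.010 without L8 to 0.19 without HN fetus L2 when single fetuses were left out. DNAJB11 differed by 0.29 (SE 0.20), with leave-one-out values from 0.18 without L8 to 0.42 without L9. DNAJB9, a co-chaperone of BiP that restrains IRE1, differed by -0.11 (SE 0.18), with leave-one-out values from -0.21 without L8 to 0.0023 without L9. DNAJC3, the BiP co-chaperone p58IPK, differed by -0.050 (SE 0.15), with leave-one-out values from -0.16 without L6 to 0.017 without L5. EDEM1, a lectin that passes misfolded glycoproteins to degradation, differed by -0.11 (SE 0.15), with leave-one-out values from -0.18 without HN fetus L1 to -0.0096 without HN fetus L3. P4HB, the founding disulphide isomerase, was matched by 0 probes.

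The other genes at the unadjusted threshold were single members of their lists. DDOST, a subunit of the oligosaccharyltransferase, was 0.34 higher in LN (SE 0.14, p = 0.0571 by exact permutation and adjusted p = 0.785 by limma), and all 4 of its probes were higher. PDIA2, a disulphide isomerase whose signal lay between 5.73 and 6.31, was 0.34 higher without overlap (SE 0.12, p = 0.0286 by exact permutation and adjusted p = 0.760 by limma), and 0.20 higher with 75th percentile scaling. USO1, a tether for vesicles moving to the Golgi, was 0.27 higher without overlap (SE 0.12, p = 0.0286 by exact permutation and adjusted p = 0.785 by limma), but by 1 of its 3 probes only. NGLY1, which strips glycans from proteins sent for degradation, was 0.33 higher (SE 0.14, p = 0.0857 by exact permutation and adjusted p = 0.785 by limma). CNPY3, named after its values were seen and a co-factor of HSP90B1 in folding Toll-like receptors, was the 1 list gene whose LN values all lay below its HN values, with a difference of -0.18 (SE 0.12, p = 0.0286 by exact permutation and adjusted p = 0.834 by limma), where 1.56% of all genes were so placed. Its difference was -0.085 without L5.

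The defining hepatocyte markers of the labelled tissue were detected in both groups. ALB was 17.85 ± 0.034 in LN and 17.84 ± 0.028 in HN, TTR was 18.39 ± 0.037 and 18.35 ± 0.025 (SD, n = 4 each), and 8 of 15 hepatocyte markers were higher in LN. Erythroid and neutrophil markers had wider differences, none past the adjusted threshold. All 11 measured erythroid markers were higher in LN (median difference 1.14), where 51.6% of all genes were, with a log2 summed signal between 14.90 and 18.20 in LN and between 13.52 and 16.22 in HN, and 14 of 15 neutrophil and granulocyte markers were higher (median difference 0.91), with 13.53 to 15.06 in LN and 12.65 to 13.91 in HN. Of 6 measured plasma cell and B cell markers, which include cells rich in ER, 1 was higher in LN, and their summed signal was 11.23 to 11.45 in LN and 11.42 to 11.74 in HN. The summed signal of L8, the fetus highest for most of the 10 genes, was 21.44 for hepatocyte, 14.90 for erythroid, 13.91 for neutrophil and 11.45 for plasma and B cell markers. The part of these cells in the ER genes was not tested. Higher in LN were 1 of 10 T and NK cell markers, 2 of 10 Kupffer cell and macrophage markers and 7 of 11 endothelial markers. So were 3 of 10 stellate cell and fibroblast markers and 4 of 6 cholangiocyte markers. By limma 0 markers of any list passed the adjusted threshold. Before adjustment, 8 reached 0.05 with a higher signal in LN. Of these, 6 were among the 15 neutrophil and granulocyte markers, 1 was erythroid and 1 was a cholangiocyte marker. The 2 that were lower in LN were plasma cell and B cell markers, of which 6 were measured. Over all genes, 3.3% reached 0.05 with a higher and 2.75% with a lower signal in LN.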

How the data were processed

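Cy3-labelled liver RNA from 4 LN and 4 HN fetuses was hybridised to 1-colour Agilent arrays. The authors deposited the scanner output of each array, in which the intensity of a spot was background-subtracted and detrended by Feature Extraction 11.0.1.1 without normalization between arrays, together with spot flags and the median intensities of spot and background. They also deposited a table of log2 values, quantile normalized in GeneSpring GX per the paper's methods. Here control and outlier spots were dropped, log2 values were averaged over the spots of each probe, and 43637 probes were quantile normalized. Detection required the well-above-background flag on 4 or more of the 8 arrays. Probe accessions were matched without version to the RefSeq table of ARS-UCD2.0, which paired 26743 probes with 12603 genes. The array design names UMD 3.1, so no coordinates are given. Differences between LN and HN came from limma 3.58.1 (lmFit, eBayes; R 4.3.3), and exact permutation tests gave p for single genes and correlations. The number of arrays limits the precision.

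The members, the gene lists and the tests were chosen with earlier results of these data known, and the lists were written by hand. Genes were named if they were members, fixed sensors and partners, the 2 largest differences per list and direction at an unadjusted p of at most 0.05, or the 5 genes most like HSPA5. Functions were tested on simulated data. Alternatives were 75th percentile scaling, normexp background correction with an offset of 50, the authors' table, other filters on dim probes, blocking by position on the slide, trended and robust eBayes, the mean over probes and each fetus left out. No source used here gives sequences of the probes.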

Additional observations from a re-analysis of the deposited data

How the results depend on the processing

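The number of the 10 genes higher in LN stayed between 7 and 8, and their median difference between 0.043 and 0.15, under all 16 alternatives. The number of the 10 genes that reached 0.05 by limma before adjustment stayed at 0. When single fetuses were left out, the number without overlap ran from 1 to 2, with PDIA4 joining PDIA3 without LN fetus L5, and the number of probes past the adjusted threshold from 0 to 1, the 1 call coming without LN fetus L6. Then CALR ran from -0.20 to 0.0082, HERPUD1 from -0.23 to 0.066 and the disulphide formation genes higher in LN from 7 to 14 of 18, with 14 without HN fetus L3. With 75th percentile scaling, the correlation of XBP1 with HSPA5 was 0.82 and no longer passed the threshold (exact permutation adjusted p = 0.0804). The same scaling brought Spearman's rho with HSPA5 past it for HSP90B1 (0.95, exact permutation adjusted p = 0.0103) and PDIA6 (0.90, exact permutation adjusted p = 0.0205), and r for PDIA4 was 0.54. The other 8 members kept their direction under every alternative, and limma adjusted p over members and alternatives was at least 0.727. The cause was not tested. No paired analysis was possible because the fetuses of the groups share no replicate number in the labels. Arrays could be blocked by their position on the slide, which does not pair fetuses, and then 0 probes passed and 1672 reached 0.05 before adjustment.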
